A study of Caenorhabditis elegans with 24 samples.

Results

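The 5 genes described here are fmo-1 (K08C7.2), fmo-2 (K08C7.5), fmo-3 (Y39A1A.19), fmo-4 (F53F4.5) and fmo-5 (H24K24.5), which encode the flavin-containing monooxygenases of Caenorhabditis elegans. They are 5 of the 44968 identifiers in the count files. They were chosen by name, and the family was taken up because fmo-5 rose strongly with food and varied widely between replicates. The values of fmo-5 at 1 h are therefore what it was chosen on, and they are given without a test. The other 4 genes came in with the family name.

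Messenger RNA was sequenced from whole L1 larvae of strain LRB269 in 24 libraries, 4 in each of 6 conditions. Larvae hatched without food and were then given HB101 bacteria at 25 mg/mL or nothing. The conditions were food for 1 h without ivermectin (F), no food at the same time (S), food for 1 h with ivermectin at 5 ng/mL (IvF at 1 h), ivermectin without food at that time (IvS at 1 h), and both of the last 2 conditions at 24 h (IvF and IvS at 24 h). Cultures without ivermectin had its solvent, dimethyl sulfoxide. All larvae carried mutations in 4 subunits of glutamate-gated chloride channels, glc-1(pk54), avr-15(vu227), avr-14(vu47) and glc-3(ok321), which make them resistant to ivermectin. They also carried an avr-15 transgene under the pharyngeal myo-2 promoter, so that the drug acts on the pharynx and is meant to block ingestion. For this strain the paper's methods name a higher dose than 5 ng/mL as the lowest that stopped eating. Ingestion in the sequenced cultures is not reported. F against S thus asks what feeding changes, and IvF against IvS what exposure to food changes when swallowing is meant to be blocked. No wild-type larvae were sequenced.

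Flavin-containing monooxygenases hold FAD, take electrons from NADPH and use molecular oxygen to add an oxygen atom to nitrogen, sulfur and other soft nucleophiles of foreign compounds and metabolites. They work beside the cytochrome P450 enzymes in the first phase of detoxification. In C. elegans, fmo-2 is the best studied member. It is induced by low oxygen through the transcription factor HIF-1 and by dietary restriction, stress and infection, and higher FMO-2 in the intestine extends lifespan. fmo-4 has been linked to osmoregulation and to lifespan.

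In the WBcel235 annotation fmo-1 and fmo-2 lay on chromosome IV with 3 protein-coding genes starting between them, fmo-3 on chromosome III, and fmo-4 and fmo-5 on chromosome V. Their coding lengths were 1599, 1587, 1536, 1704 and 1554 bases in the order fmo-1 to fmo-5. No exon of the 5 genes overlapped that of another gene, so that reads counted without strand could not come from a neighbour annotated there. All 5 passed the filter on low counts, which kept 19050 genes with more than 1 CPM, the read count scaled by the library's total on genes, in at least 4 libraries.

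Libraries with ivermectin had 14498061 to 19448998 reads on genes and those without it 8690378 to 14139935. Reads outside annotated features made up 4.39% to 11.3% of the aligned reads with ivermectin and 2.67% to 3.70% without it, and reads shared by genes 2.97% to 3.68% and 6.59% to 10.2%. The 16 libraries with ivermectin also carry replicate numbers of their own in the labels, called A to D here in rising order of the labels' numbers, where those without it are numbered 1 to 4, so that ivermectin and any batch behind these numbers cannot be told apart. No listed marker of intestine, hypodermis, neurons or pharynx was at 0 throughout a condition, and of 5 body wall muscle markers only hlh-1 was, with 0 reads in all 24 libraries. Whether reads of hlh-1 could be counted in these files was not tested, so its 0 is not read as a state of muscle. In whole larvae, fewer cells of a type and less RNA per cell cannot be told apart.

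fmo-5 had 79.5, 59.6, 4462 and 78.3 CPM in F replicates 1 to 4, against 19.1, 21.7, 16.3 and 21.7 CPM in S. All 4 fed libraries lay above all 4 starved ones, 3 of them by a few fold and replicate 3 by a far larger step. With ivermectin fmo-5 had 2309, 169.0, 114.6 and 5758 CPM in IvF at 1 h (replicates A to D), against 40.7, 25.8, 26.5 and 28.4 CPM in IvS at 1 h. Again no library overlapped between the conditions, and the libraries with food fell into a very high pair and a pair that was still above every library of IvS. At 24 h it had 34.0, 34.8, 37.2 and 32.3 CPM in IvF, against 24.8, 20.3, 26.4 and 20.7 CPM in IvS. The high levels at 1 h were thus seen in 3 libraries, F replicate 3 and IvF replicates A and D at 1 h, and in no library at 24 h.

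**Figure D1:**
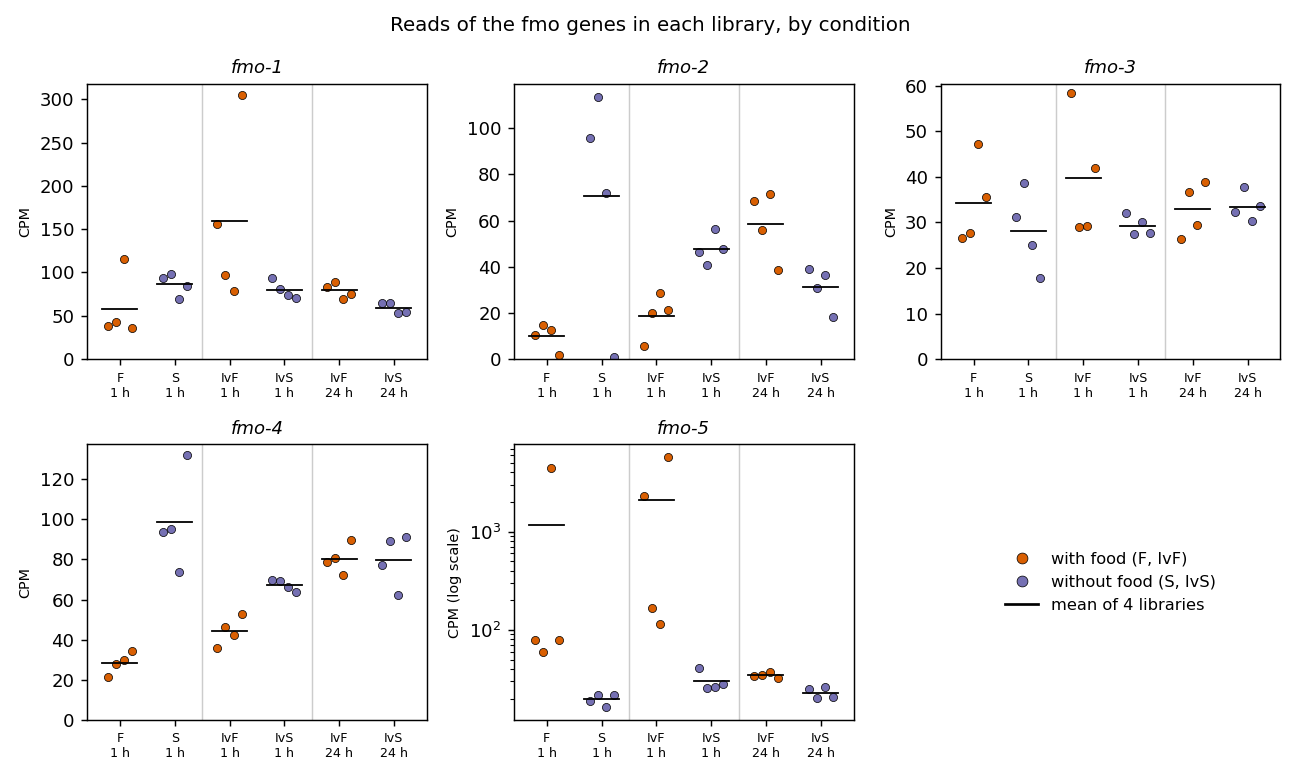
CPM of the 5 fmo genes (1 panel each) in every library, by condition, with food left of without food in each pair. Points are libraries, orange with food and purple without, and the black line is the mean of 4 libraries; the fmo-5 axis is logarithmic, and its 3 highest points are 2309, 4462 and 5758 CPM, where no library without food passes 40.7 CPM.

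The fitted difference of fmo-5 was 5.71 (SE 1.31) on the log2 scale for F against S and 6.02 (SE 1.33) for IvF against IvS at 1 h. Most of this size came from the 3 high libraries. Without them the difference was 1.72 for F against S and 2.22 for IvF against IvS at 1 h, and leaving out F replicate 3 alone gave 1.72 as well. Between IvF at 24 h and IvF at 1 h fmo-5 differed by -5.88 (SE 1.32), and by -2.07 without the high libraries. In F and in IvF at 1 h, 1 gene each had a larger SD between replicates on the log2(CPM + 1) scale than fmo-5, of 8869 and 8917 genes averaging 10 CPM or more. In the other 4 conditions its SD was 0.08 to 0.30, which lay at percentiles 7.52 to 94.9 of such genes.

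At 24 h fmo-5 showed neither the large rise nor the wide spread it was chosen on, but these libraries were known when it was chosen. It averaged 34.6 ± 2.01 CPM with food (IvF) and 23.1 ± 3.05 CPM without (IvS; SD, n = 4 each). The ratio was 1.5, with all 4 libraries with food above all 4 without. In the fit of all libraries the difference was 0.49 (SE 1.09), with an adjusted p of 0.999 in edgeR's quasi-likelihood test. That fit gives each gene a single dispersion, which for fmo-5 includes the high libraries at 1 h, and in a fit of the 8 libraries at 24 h alone the adjusted p was 0.0801. A two-sided exact permutation test of the 8 libraries gave p = 0.0286, the smallest it can give, for 1 of 13 such tests of the fmo genes. That value follows from the lack of overlap alone, and these tests were chosen after the data were seen, so it adds no independent support. The difference therefore did not pass the threshold over all genes.

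fmo-1 was highest in the same 3 libraries as fmo-5. It had 38.4, 42.6, 115.2 and 36.3 CPM in F, against 93.6, 98.6, 69.7 and 83.9 CPM in S, so that 3 fed libraries were below all starved ones and replicate 3, the one high in fmo-5, was above them all. In IvF at 1 h it had 155.8, 97.1, 78.7 and 304.7 CPM, against 93.4, 80.4, 73.6 and 70.0 CPM in IvS at 1 h. Here too the 2 highest libraries were replicates A and D. At 24 h it had 83.7, 88.8, 69.7 and 74.7 CPM in IvF, against 65.0, 65.1, 52.8 and 53.99 CPM in IvS, with no overlap.

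None of these differences of fmo-1 with food passed the thresholds, which asked for an adjusted p below 0.05 together with a log2 difference of more than 0.5 in either direction. The log2 difference was -0.76 (SE 0.34, adjusted p = 0.0893) for F against S, 0.96 (SE 0.34, adjusted p = 0.112) for IvF against IvS at 1 h and 0.32 (SE 0.33, adjusted p = 0.999) at 24 h. Without F replicate 3 the difference in F against S was -1.32 (adjusted p = 0.00109) and passed, as did 1.20 (adjusted p = 0.0237) in IvF against IvS at 1 h without IvF replicate C. At 24 h the exact permutation test gave p = 0.0286. The difference with food at 1 h was larger with ivermectin than without it by 1.72 (SE 0.48, adjusted p = 0.0203), and this call was lost without IvF replicate D at 1 h (1.33, adjusted p = 0.0580).

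fmo-2, the member known for its response to low oxygen and dietary restriction, had lower mean levels with food at 1 h. It had 10.3, 14.6, 12.7 and 1.62 CPM in F, against 95.8, 113.7, 72.1 and 0.915 CPM in S. The first 3 starved libraries were several fold above every fed one, and replicate 4 of both conditions was close to 0, with 17 reads in F and 8 in S. F and S thus overlapped. In IvF at 1 h it had 5.60, 19.8, 28.7 and 21.3 CPM, against 46.6, 40.7, 56.4 and 47.5 CPM in IvS at 1 h, here without overlap. At 24 h the order was the other way, with 68.4, 55.9, 71.6 and 38.4 CPM in IvF, against 39.1, 30.7, 36.6 and 18.3 CPM in IvS, and only the lowest library with food fell below the highest one without.

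In F against S fmo-2 fell by 3.09 on the log2 scale (SE 0.75, adjusted p = 0.00287), which passed the thresholds. Without replicate 4 of both conditions the call held, but a fit of these 8 libraries alone gave an adjusted p of 0.0946, and the exact permutation test p = 0.257. In IvF against IvS at 1 h the difference was -1.42 (SE 0.69, adjusted p = 0.364) and did not pass, although the exact permutation test reached p = 0.0286. At 24 h it was 0.85 (SE 0.68, adjusted p = 0.999, permutation p = 0.0571). The difference with food at 24 h minus that at 1 h was 2.27 (SE 0.97, adjusted p = 0.517). Its adjusted p was 0.0256 when only the 16 ivermectin libraries were fitted. The differences at the 2 times were thus called unequal in 1 fit and not in the other. Neither fit tests a change of sign, and the difference at 24 h did not pass by itself.

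fmo-4 was lower with food at 1 h, both without and with ivermectin. It had 21.6, 28.1, 30.1 and 34.5 CPM in F, against 93.6, 95.02, 73.8 and 131.9 CPM in S, and every fed library was far below the lowest starved one. In IvF at 1 h it had 35.8, 46.2, 42.2 and 52.6 CPM, against 69.6, 69.5, 66.1 and 63.6 CPM in IvS at 1 h, with no overlap but a smaller gap. At 24 h the groups lay over each other, at 78.7, 80.8, 72.1 and 89.6 CPM in IvF, against 77.1, 89.3, 62.5 and 91.1 CPM in IvS.

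It fell by 1.97 (SE 0.15, adjusted p = 6.5e-10) in F against S, 3.92-fold, and by 0.63 (SE 0.14, adjusted p = 0.00778) in IvF against IvS at 1 h, 1.55-fold. Each of these gave p = 0.0286 in the exact permutation test. The fall with food at 1 h was smaller with ivermectin by 1.34 (SE 0.21, adjusted p = 1.0e-04), a difference between differences that kept its call with each library left out. At 24 h fmo-4 differed by -0.11 (SE 0.14, adjusted p = 0.999). Without the 3 libraries high in fmo-5 the difference in IvF against IvS at 1 h was of the same size, -0.62, but with 2 libraries left in IvF its adjusted p was 0.0903.

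fmo-3 was called in none of the 9 comparisons and ranged from 17.7 CPM in S replicate 4 to 58.5 CPM in IvF replicate A at 1 h. It averaged 34.3 ± 9.52 CPM in F and 28.2 ± 8.94 CPM in S, at 1 h 39.7 ± 13.9 CPM in IvF and 29.3 ± 2.16 CPM in IvS, and at 24 h 32.9 ± 5.91 CPM in IvF and 33.5 ± 3.13 CPM in IvS (SD, n = 4 each). The conditions overlapped in all 3 pairs. Its differences with food were 0.07 (SE 0.26, adjusted p = 0.876), 0.47 (SE 0.26, adjusted p = 0.460) and -0.15 (SE 0.26, adjusted p = 0.999), and none passed. In 2 of the 3 libraries high in fmo-5, F replicate 3 at 47.2 CPM and IvF replicate A at 58.5 CPM, it was also at the top of its condition.

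**Figure D2:**
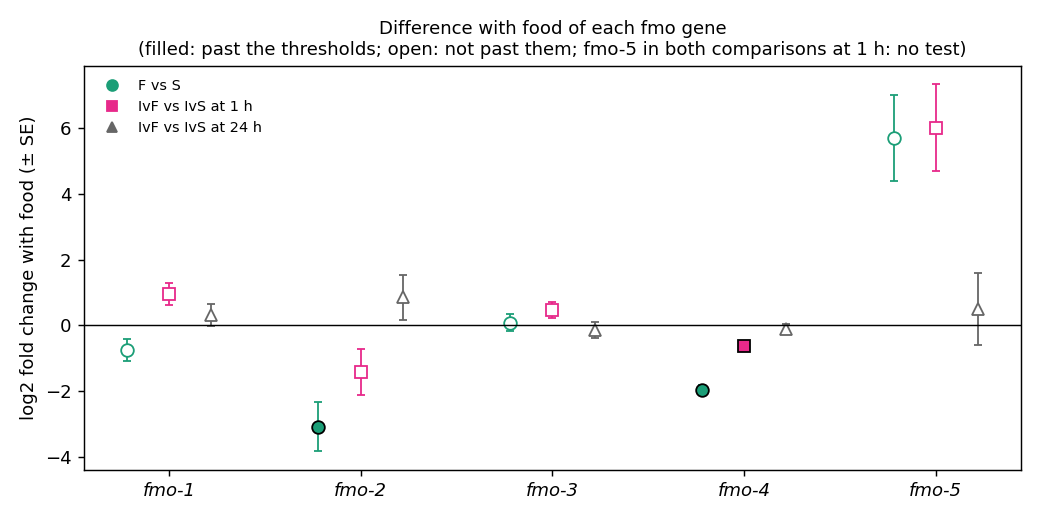
Log2 difference with food (vertical axis, ± SE) of the 5 fmo genes in F against S, IvF against IvS at 1 h and at 24 h. Filled symbols passed the thresholds, fmo-2 at -3.09 and fmo-4 at -1.97 in F against S and fmo-4 at -0.63 in IvF against IvS at 1 h, and the 2 open symbols of fmo-5 near 6 were not tested.

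Of the 4 members tested, 2 were called in F against S, both lower, where 29.0% of all 19050 genes were called, 13.6% higher and 15.4% lower. In IvF against IvS at 1 h 1 of 4 was called, lower, against 5.56% of all genes, 3.27% higher and 2.29% lower. At 24 h 0 of 5 were called in the quasi-likelihood test, 0 by edgeR's exact test or DESeq2, and 0 had an unadjusted p below 0.05, against 0.777% of all genes called, 0.583% higher and 0.194% lower. Libraries with and without food did not overlap for 2 of the 5 members in F against S (fmo-4 and fmo-5, fmo-5 being chosen on this), against 24.5% of all genes, for 3 in IvF against IvS at 1 h (fmo-2, fmo-4 and fmo-5), against 16.2%, and for 2 at 24 h (fmo-1 and fmo-5), against 6.16%.

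Time was tested with ivermectin only. In IvF at 24 h against IvF at 1 h fmo-4 rose by 0.84 (SE 0.14, adjusted p = 0.000339) and was the 1 of 4 members called, against 9.92% of all genes. The values of fmo-1 (-1.0, SE 0.34, adjusted p = 0.0585) and fmo-2 (1.70, SE 0.70, adjusted p = 0.140) did not pass, but that of fmo-1 was called without IvF replicate B at 1 h (-1.16, adjusted p = 0.0376) or replicate C (-1.24, adjusted p = 0.0122). In IvS at 24 h against IvS at 1 h 0 of 4 were called, also by edgeR's exact test and DESeq2, against 5.24% of all genes, and 1, fmo-4 at 0.32, had an unadjusted p below 0.05. For the difference with food at 24 h minus that at 1 h 0 of 4 were called in the quasi-likelihood test or DESeq2, with 2 (fmo-2 and fmo-4) at an unadjusted p below 0.05, against 0.971% of all genes called.

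Between libraries with and without ivermectin most of the transcriptome differed, and the depth and the replicate numbers differed with it. In IvF against F at 1 h 60.8% of all genes were called and 1 of 4 members, fmo-1, which was higher by 1.15 (SE 0.34, adjusted p = 0.00545) but not called in a fit of those 8 libraries alone (adjusted p = 0.111). In IvS against S at 1 h 57.3% of all genes were called and 1 of 4 members, fmo-4, which fell by 0.99 (SE 0.14, adjusted p = 3.6e-06). The median of all genes was 0.13 and 0.04 in these comparisons with TMM scaling and 0.41 and 0.49 with library totals alone, and with library totals fmo-4 in IvS against S was at -0.55. For the difference with food at 1 h with ivermectin minus that without, 2 of 4 were called, fmo-1 and fmo-4, against 10.3% of all genes. S replicate 4 decided calls of the other 2 members. Without it fmo-2 was called for this difference (2.07, adjusted p = 0.0319) and in IvS against S (-1.41, adjusted p = 0.00995), and fmo-3 in IvS against S (-0.55, adjusted p = 0.0486).

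Per kilobase of coding sequence the family was summed to compare its members. fmo-5 made up 35.3% to 95.7% of the summed CPM per kilobase in F, against 5.95% to 8.97% in S. It made up 39.9% to 93.4% in IvF at 1 h, against 10.9% to 14.9% in IvS at 1 h, and 12.1% to 13.7% in IvF at 24 h, against 8.70% to 13.1% in IvS at 24 h. Without fmo-5 the sum was 60.4 to 128.4 CPM per kilobase in F, against 142.0 to 214.3 in S, so that the other 4 members together were lower in every fed library than in any starved one. In IvF at 1 h this sum was 111.2 to 262.1, against 129.1 to 149.5 in IvS at 1 h.

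The order of the conditions differed between the members. fmo-5 had its highest means in IvF at 1 h and F, whose libraries overlapped, and the next step down, to IvF at 24 h, was the only one in its order without overlap. fmo-4 ran from S, at 98.6 ± 24.3 CPM, through IvF and IvS at 24 h and IvS at 1 h, which overlapped with their neighbours, down to IvF at 1 h at 44.2 ± 7.07 CPM and F at 28.6 ± 5.36 CPM, which did not. fmo-2 was highest in S and lowest in F. fmo-1 was highest in IvF at 1 h and lowest in F, with overlap at every step but that from IvF to IvS at 24 h, and no step of fmo-3 was free of overlap.

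The genes whose level followed that of fmo-5 most closely over the 24 libraries, by Pearson's r of log2(CPM + 1) among 10366 genes, were cyp-29A2 (r = 0.98), nhr-78 (0.98), D2063.1 (0.97), Y50D4B.2 (0.97) and gba-2 (0.97). cyp-29A2 encodes a cytochrome P450, nhr-78 a nuclear hormone receptor and gba-2 a glucosylceramidase. The points share conditions and depth, and r stayed at 0.79 to 0.94 over the 21 libraries without the 3 high ones. fmo-4 ran the other way in level (r = -0.59, and -0.76 over the 21), and fmo-1 had r = 0.64 and -0.21.

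After subtracting each condition's mean, so that only the spread between replicates is left, the closest genes were alh-4, an aldehyde dehydrogenase, cyp-29A2, F49E12.10, cyp-25A3, another cytochrome P450, and gba-2, each with r = 0.98 (Spearman's rho 0.79 to 0.88). Without the 2 libraries farthest in fmo-5, r was 0.91 to 0.96, and over the 21 libraries without the 3 high ones it was 0.12 to 0.64, so that this likeness was mostly that of 3 libraries. Among the members, fmo-1 had r = 0.93 with fmo-5 in these deviations, fmo-3 0.61, fmo-4 0.12 and fmo-2 -0.02. Over the 21 libraries fmo-1 had r = 0.38 and fmo-3 0.02.

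**Figure D3:**
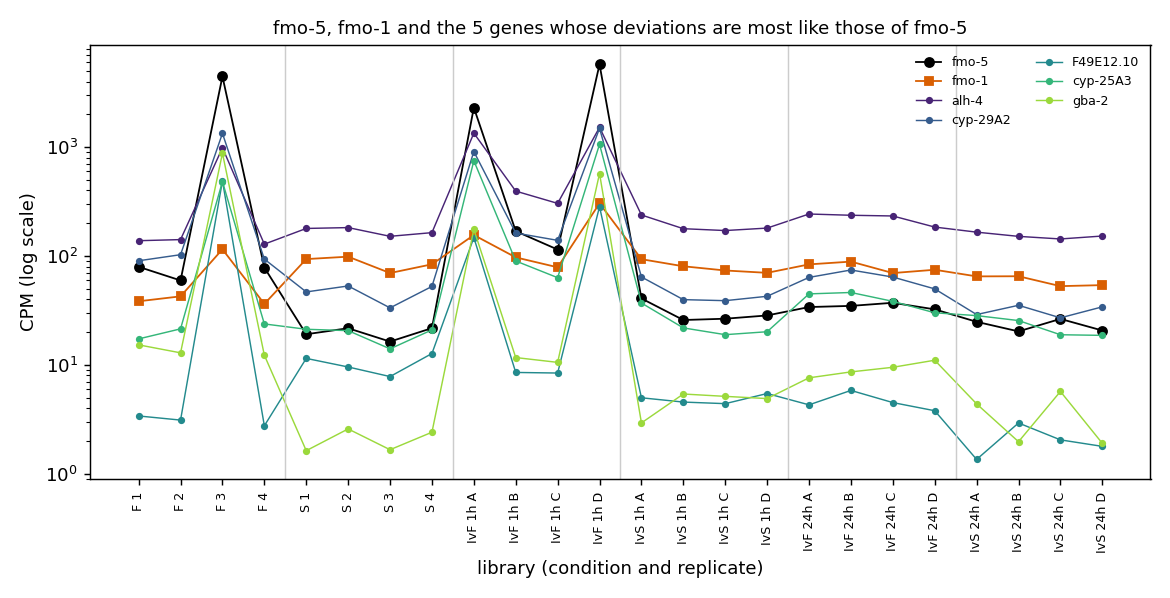
CPM on a log axis of fmo-5, fmo-1 and the 5 genes closest to fmo-5 in their deviations, in each of the 24 libraries. Lines join the points of 1 gene and stand for no order of replicates; all 7 genes peak in F replicate 3 and in IvF replicates A and D at 1 h, alh-4 with 986.2, 1345 and 1520 CPM there and at most 394.4 CPM elsewhere.

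In those 3 libraries alh-4 had 986.2 to 1520 CPM, against 128.5 to 394.4 CPM in the other 21. cyp-25A3 had 482.0 to 1062 CPM, against 14.03 to 89.95 CPM, and gba-2 had 175.6 to 880.2 CPM, against 1.63 to 15.3 CPM. These genes were picked for this likeness, so that no test applies. The 3 libraries were not alike in everything. cysl-2, a HIF-1 target, had 663.0 CPM in F replicate 3 and 519.9 CPM in IvF replicate D at 1 h but 32.3 CPM in IvF replicate A, where the other 2 libraries of that condition had 869.2 and 670.0 CPM. The 8 markers of intestine, none of them at 0 throughout a condition, summed to 3747 to 5908 CPM in IvF, against 3245 to 5898 CPM in IvS at 1 h, and 2646 to 3048 CPM in F, against 1358 to 3445 CPM in S. The part of tissue make-up or of any handling of these cultures in the 3 high libraries was not tested.

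The low fmo-2 of replicate 4 in both F and S was shared by few genes. Of 3384 genes above 50 CPM in one of S replicates 1 to 3, 4 were more than 20 times lower in both replicate 4 libraries than in the lowest of S replicates 1 to 3, by a rule chosen after these values were seen. They were fmo-2, C23G10.11, T22F3.11 and acs-2, an acyl-CoA synthetase of fatty acid oxidation. acs-2 had 225.5, 251.5, 102.7 and 23.5 CPM in F, against 975.3, 920.0, 798.1 and 3.09 CPM in S. In C. elegans both acs-2 and fmo-2 are known to need the nuclear receptor NHR-49 for their induction. The nhr-49 gene itself had 208.6 CPM in F replicate 4 and 280.6 CPM in S replicate 4, within or above the 151.7 to 224.4 CPM of the other F libraries and the 160.7 to 256.1 CPM of the other S libraries. The activity of the receptor was not measured, and whether it had a part in the low values was not tested. S replicate 4 also stood apart in hsp-12.6, a small heat shock protein, with 130.9 CPM, against 3.32 to 5.94 CPM in the other S libraries.

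Around the enzymes, 10 genes known to regulate fmo-2 in C. elegans were followed. In F against S 2 rose and 1 fell, with a median difference of 0.02, against -0.07 over all genes. Among all genes 29.0% were called there, 13.6% higher and 15.4% lower, which is close to the share among the regulators. rhy-1, a repressor of HIF-1 that HIF-1 itself induces, rose by 0.83 (SE 0.28, adjusted p = 0.0245), and tph-1, the tryptophan hydroxylase of serotonin synthesis, by 1.40 (SE 0.15, adjusted p = 1.3e-07), while mdt-15, a Mediator subunit, fell by 0.54 (SE 0.15, adjusted p = 0.00674). The call of rhy-1 was lost without F replicate 3 (0.51, adjusted p = 0.168), S replicate 2 or S replicate 4, and mdt-15 was below the fold threshold without F replicate 4 (-0.43), S replicate 3 or S replicate 4. In IvF against IvS at 1 h rhy-1 (1.5) and tph-1 (1.14) rose and none fell, against 5.56% of all genes called. At 24 h 0 of 10 were called, against 0.777% of all genes, but tph-1 was without IvF replicate C (0.70, adjusted p = 0.0240). hif-1, egl-9, vhl-1, hlh-30, nhr-49, skn-1 and ser-7 passed in none of the 3 comparisons, although ser-7 was called in F against S without F replicate 2 or S replicate 3. The differences at 1 h, without and with ivermectin, were -0.35 and 0.14 for nhr-49 and -0.27 and 0.03 for hlh-30. A part of either in the level of fmo-2 was not tested.

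Next, 9 targets of HIF-1 were followed, of which rhy-1 and egl-9 are also among the regulators. In F against S 4 rose and 0 fell (median 0.83, against -0.07 over all genes), where 13.6% of all genes rose and 15.4% fell. In IvF against IvS at 1 h 5 rose and 0 fell (median 1.21, against 0.02), where 3.27% rose and 2.29% fell. At 24 h 0 were called, against 0.777% of all genes. cysl-2, a cysteine synthase family enzyme that acts on sulfide and cyanide, averaged 884.0 ± 151.5 CPM in F and 28.6 ± 9.99 CPM in S (SD, n = 4 each), a rise of 4.67 (SE 0.61, adjusted p = 3.1e-06), and rose by 4.00 (SE 0.59, adjusted p = 0.000157) in IvF against IvS at 1 h. F22B5.4 rose by 2.0 and 2.72, and phy-2, a collagen prolyl 4-hydroxylase, by 1.53 and 0.74. In these comparisons fmo-2, which HIF-1 induces in low oxygen, was at -3.09, which passed the thresholds, and -1.42, which did not. HIF-1 activity was not measured, and a part of it in any of these differences was not tested.

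Among 10 genes that supply NADPH and FAD or pass electrons on, 3 rose and 1 fell in F against S (median 0.24), 1 rose and 1 fell in IvF against IvS at 1 h (median 0.10), and 0 were called at 24 h. Of all genes, 29.0% were called in F against S, 13.6% higher and 15.4% lower (median -0.07). For IvF against IvS the shares were 5.56% at 1 h, 3.27% higher and 2.29% lower (median 0.02), and 0.777% at 24 h (median -0.01). The gene that fell was nnt-1, the mitochondrial transhydrogenase that makes NADPH, by 2.94 (SE 0.31, adjusted p = 7.9e-08) and by 1.15 (SE 0.28, adjusted p = 0.0135). It had 5.35, 10.1, 12.5 and 17.4 CPM in F, against 38.0, 67.2, 46.3 and 166.9 CPM in S. S replicate 4 was far above the other starved libraries, and without it the difference was -2.40. The call at 1 h with ivermectin was lost without the 3 libraries high in fmo-5 (adjusted p = 0.0906). emb-8, the NADPH reductase that serves cytochrome P450 enzymes, rose by 1.02 (SE 0.36, adjusted p = 0.0307) and 1.57 (SE 0.36, adjusted p = 0.00807), and it was also highest in the 3 libraries high in fmo-5, with 529.1 to 1044 CPM, against 89.2 to 322.9 CPM in the other 21. In F against S its call was lost without F replicate 3 (0.39, adjusted p = 0.335) or S replicate 1, 3 or 4, and without the 3 high libraries it was at 0.70 (adjusted p = 0.0454) in IvF against IvS at 1 h. idh-1, an isocitrate dehydrogenase, and gspd-1, glucose-6-phosphate dehydrogenase, rose by 1.37 and 0.69 in F against S, with 0.81 and 0.17, which did not pass, for IvF against IvS at 1 h, and gspd-1 lost its call in F against S without F replicate 4 (adjusted p = 0.0503).

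**Figure D4:**
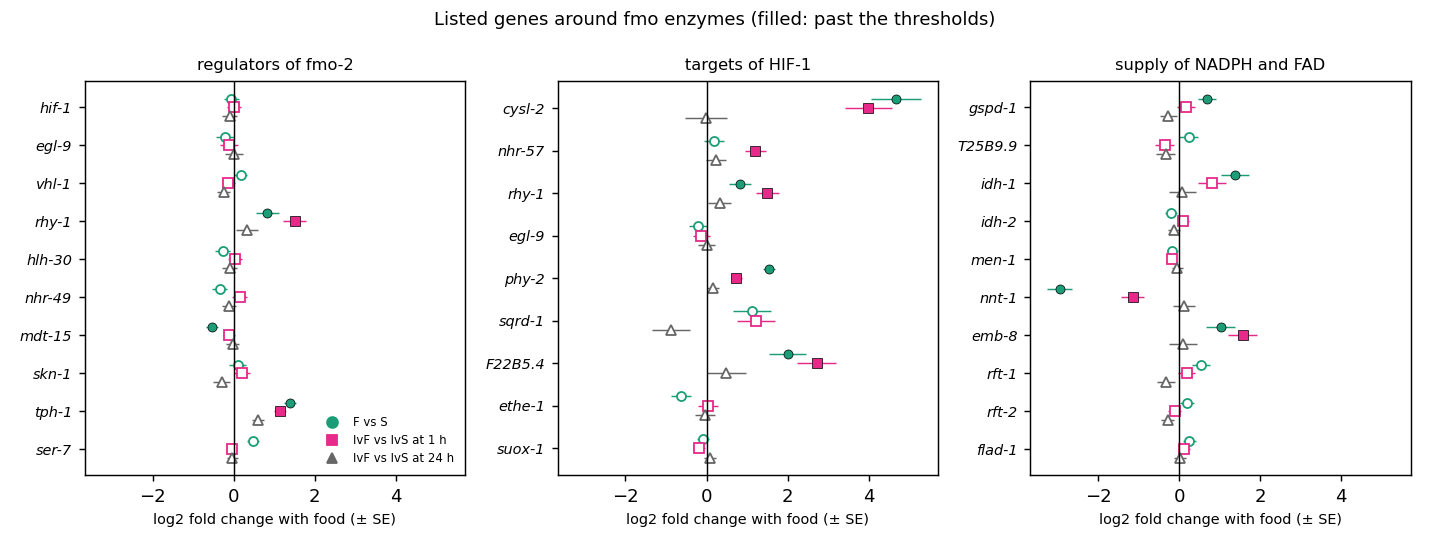
Log2 difference with food (horizontal axis, ± SE) of 10 regulators of fmo-2, 9 targets of HIF-1 and 10 genes of NADPH and FAD supply, for F against S, IvF against IvS at 1 h and at 24 h. Filled symbols passed the thresholds; cysl-2 lies farthest right at 4.67 and 4.00, nnt-1 farthest left at -2.94, and no triangle of the 24 h comparison is filled.

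The larger families of detoxification moved in both directions. Of 74 cytochrome P450 genes (symbols starting with cyp) 13 rose and 18 fell in F against S (median -0.06), 14 rose and 6 fell in IvF against IvS at 1 h (median 0.21), and 1 rose and 1 fell at 24 h. Without F replicate 3, 7 rose and 22 fell in F against S, and without F replicate 1, 17 rose and 17 fell. In IvF against IvS at 1 h 8 rose without IvS replicate B and 9 without IvS replicate C or IvF replicate D. There 17 rose without IvF replicate B, and 18 rose and 3 fell without IvF replicate C. Without the 3 libraries high in fmo-5, 7 rose and 2 fell. Of 67 UDP-glucuronosyltransferase genes (ugt), which conjugate the products of such oxidations, 31 rose and 12 fell in F against S (median 0.58), 30 rose and 5 fell in IvF against IvS at 1 h (median 0.44), and 7 rose and 2 fell at 24 h (median 0.25), where 4 rose without IvS replicate C or D and 0 to 2 fell with each library left out. The medians of all genes in these 3 comparisons were -0.07, 0.02 and -0.01. In the same order, 13.6%, 3.27% and 0.583% of all genes were called higher, and 15.4%, 2.29% and 0.194% lower. In the quasi-likelihood test the 4 fmo genes tested at 1 h gave falls only among their calls with food, fmo-4 in 2 comparisons and fmo-2 in 1. By edgeR's exact test (adjusted p = 0.0484) and DESeq2 (adjusted p = 0.0394), fmo-1 was called higher in IvF against IvS at 1 h. fmo-5, which rose most, was not tested at 1 h.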

How the data were processed

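Poly(A) RNA of 24 cultures of L1 larvae was sequenced from non-directional libraries. The authors mapped reads with Bowtie (1.1.2 per the submitters' processing notes) to the WS210 genome with WS220 transcripts and counted them per gene with HTSeq, and the deposited values are these raw counts, without normalization. The HTSeq version, mode and treatment of multiply mapped reads are not given in the sources used here. HTSeq's own totals were left out of library sizes. CPM, computed here, divides by all reads on genes. Names, coding lengths and overlaps came from WBcel235, whose positions are not printed because the build differs, and 44443 of 44968 identifiers had a symbol.

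Counts were tested in R 4.3.3 with edgeR 4.0.16 (TMM, robust quasi-likelihood F test) in 1 fit of 6 condition means, after a filter of more than 1 CPM in at least 4 libraries. SE is the log2 fold change over the square root of F. Thresholds were a Benjamini-Hochberg adjusted p below 0.05 over the 19050 genes and an absolute log2 fold change above 0.5. The 13 exact permutation tests used log2(CPM + 1), and with 4 against 4 libraries p cannot go below 0.0286. Replicates are those of the labels, called biological by the study. Alternatives were edgeR's exact test, DESeq2 1.42.0, its size factors, no filter, genes averaging at least 5 CPM, a replicate block, fits of the compared libraries, no fold change threshold and each library left out. The fits without the libraries high in fmo-5 or low in fmo-2, the lists with libraries left out, the library totals and the permutation tests were chosen after seeing the data.

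The members and lists were chosen with earlier results of these data known. The genes named are the 5 members, every listed regulator, up to 4 called genes with the largest change per list and comparison, and the 5 genes most like fmo-5 in level and in deviation. acs-2, C23G10.11, T22F3.11 and hsp-12.6 were named after their values were seen. The test was tested on simulated data.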

Additional observations from a re-analysis of the deposited data

Results flagged for a closer look

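In 26 groups of 4 libraries, each 1 fmo gene in 1 condition, 1 had a library whose gap to the nearest other made up more of the range than Dixon's critical value for 4 values, where chance flags about 1 in 20 groups. In F the highest fmo-1 value, that of replicate 3, was 115.2 CPM, and the other 3 libraries had 36.3 to 42.6 CPM. fmo-5 at 1 h was not looked at in this way, since it was chosen on that spread.

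The difference with food at 1 h, with ivermectin minus without, was past the thresholds for fmo-1 (1.72, adjusted p = 0.0203 in edgeR's quasi-likelihood test) and fmo-4 (1.34, adjusted p = 1.0e-04). For fmo-1 the difference with food was 0.96 with ivermectin and -0.76 without it, and for fmo-4 -0.63 with it and -1.97 without it. Ivermectin and the replicate numbering cannot be told apart in either.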

How the results depend on the processing

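Counts of called members that moved were as follows. edgeR's exact test and DESeq2 each called 2 in IvF against IvS at 1 h and 2 in IvF at 24 h against 1 h (fmo-1 added, with adjusted p of 0.0484 and 0.0394 at 1 h). Without a filter 1 was called for food by ivermectin (fmo-4). With a mean of at least 5 CPM 2 were called in IvF at 24 h against 1 h and 2 in IvF against F. Without a fold change threshold 2 were called in IvF against F. In fits of the compared libraries the counts were 1 in F against S, 2 in IvF at 24 h against 1 h, 0 in IvF against F, 2 in IvS against S, 1 for food by time and 1 for food by ivermectin. Without the 3 libraries high in fmo-5, 0 were called in IvF against IvS at 1 h, and without replicate 4 of F and S, 2 in IvS against S.

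With each library left out, 2 to 3 were called in F against S (3 without F replicate 3, fmo-1 added), 1 to 3 in IvS against S (3 without S replicate 4), 1 to 2 in IvF at 24 h against 1 h (2 without IvF replicate B or C at 1 h) and in IvF against IvS at 1 h (2 without IvF replicate C), and 1 to 3 for food by ivermectin (1 without IvF replicate D, fmo-1 lost, and 3 without S replicate 4, fmo-2 added).

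Replicate numbers were not taken to pair the libraries, since not every pair correlated above 0.1. Deviations from the condition means of same-numbered F and S libraries correlated at 0.06 to 0.50, with 3 of 4 best with their own number, and those with ivermectin at -0.53 to 0.75, with 10 of 24. With a replicate block, 3 members were called in F against S (fmo-1 added at -0.95, adjusted p = 0.0277) and 2 in each of IvF against IvS at 1 h, IvF at 24 h against 1 h and IvF against F, where fmo-2 was added at -1.43, 1.67 and 1.30 (adjusted p = 0.0361, 0.00906 and 0.0228). fmo-5 was at 2.72 in F against S and -0.43 in IvS against S.

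Signs turned for the following values. fmo-3 in IvF against F (-0.01) was 0.1098 with DESeq2, 0.109 with its size factors, 0.0498 without a filter, 0.22 with a mean of 5 CPM, 1.0e-04 in the fit of those libraries and 0.0276 without replicate 4, and -0.42 to 0.23 with libraries left out. fmo-3 in F against S was -0.1065 without the libraries high in fmo-5, -0.1094 without replicate 4, and -0.11 to 0.20 with libraries left out. Without the high libraries fmo-3 was at -0.0346 in IvF against IvS at 1 h, where it was 0.47 with all libraries, and 0.14 in IvF at 24 h against 1 h (-0.36), and fmo-1 at 0.21 for food by time (-0.63). With libraries left out fmo-3 ranged over -0.51 to 0.0418 in IvF at 24 h against 1 h and -0.008 to 0.58 for food by ivermectin. fmo-5, chosen on these libraries, was at -0.0702 for food by ivermectin without replicate 4, -0.68 at the lowest and 4.31 at the highest with libraries left out, -0.0234 to 0.326 in IvS against S and -0.44 to 4.56 in IvF against F. The cause of these changes was not tested.

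Of 840 recomputed fold changes 772 stayed the same. For tested values this means the same direction and the same side of the thresholds. For fmo-5 where it was not tested, it means the same direction and a move of less than 1 SE. With TMM-scaled CPM 23 of 30 mean levels moved by less than 1 SD, the other 7 by more. One read was worth 0.05 to 0.12 CPM, so that depth limits fmo-2 only in replicate 4 of F and S.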
